A study of Homo sapiens with 9 samples.

Results

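Sialic acid synthesis, transport and removal genes were followed in 2 human colon carcinoma cell lines on 9 single-colour expression arrays. The genes were GNE, NANS, CMAS, SLC35A1, SLC17A5, NPL, NEU1, NEU2 and NEU3, and every probe set whose RefSeq identifier maps to one of these 9 symbols was taken. All 9 genes were represented, by 10 of the 1259 probe sets in the deposited table, which cover 927 named genes. NEU1 had 2 probe sets and each other gene had 1. The 3 groups were T84 cells given 100 U/ml interferon gamma for 24 hours (3 arrays), T84 cells without treatment at passage 68 (3 arrays), and Caco-2 cells without treatment at passage 37 (3 arrays). Both untreated lines were about 90% confluent at harvest, and no passage or confluence was found in the labels for the treated T84 cells. The arrays were run to find glycosylation genes behind sialylated CD44v6, which the antibody GM35 detects in T84 cells, most strongly under interferon gamma, and not in Caco-2 cells. T84 was derived from a metastasis of a colon carcinoma and Caco-2 from a primary colon tumour, so each comparison with Caco-2 sets 1 line against another. Nothing in the labels says that the numbered replicates were separate cultures, and the p-values therefore reflect the spread of these arrays alone, which may be technical.

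Sialic acids are acidic sugars that cap glycans on secreted and cell surface glycoproteins, including the mucins and adhesion molecules of the gut epithelium. Cells make them in the cytosol from UDP-GlcNAc, activate them to CMP-sialic acid in the nucleus, carry the activated form into the Golgi, and attach it there with sialyltransferases. Sialidases remove sialic acid from glycans, and the freed sugar leaves the lysosome through a dedicated transporter and is either reused or broken down by a lyase.

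RefSeq (GRCh38.p14) lists 11 start windows for the 9 genes, with GNE and NEU3 listed at more than 1 start. The 250 bases before each start were searched on both strands for the interferon gamma activation site TTCNNNGAA, the interferon-stimulated response element (GAAA repeated after any 2 bases) and the E-box CACGTG, which occur in 6.57%, 3.02% and 6.35% of 35114 such windows. The windows of GNE are shown because GNE was the member called after interferon gamma. Those of NEU1 and NPL are shown because both genes were lower in T84 than in Caco-2 and both windows hold the E-box, set in capitals, which begins at position -126 in NEU1 and -56 in NPL relative to the listed start. The sequences run 5′ to 3′ on the gene's strand.
GNE, chr9:36276979-36277228 (- strand): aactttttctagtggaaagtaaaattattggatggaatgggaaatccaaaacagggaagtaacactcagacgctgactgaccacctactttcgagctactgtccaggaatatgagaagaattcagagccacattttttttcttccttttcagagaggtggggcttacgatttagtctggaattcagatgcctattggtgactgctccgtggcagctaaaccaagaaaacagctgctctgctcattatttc
GNE, chr9:36258449-36258698 (- strand): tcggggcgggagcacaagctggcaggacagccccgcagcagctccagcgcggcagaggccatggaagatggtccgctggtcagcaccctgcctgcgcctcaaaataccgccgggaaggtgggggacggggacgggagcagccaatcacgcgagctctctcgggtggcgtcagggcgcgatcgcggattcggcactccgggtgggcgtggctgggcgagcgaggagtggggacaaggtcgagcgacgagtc
NEU1, chr6:31862822-31863071 (- strand): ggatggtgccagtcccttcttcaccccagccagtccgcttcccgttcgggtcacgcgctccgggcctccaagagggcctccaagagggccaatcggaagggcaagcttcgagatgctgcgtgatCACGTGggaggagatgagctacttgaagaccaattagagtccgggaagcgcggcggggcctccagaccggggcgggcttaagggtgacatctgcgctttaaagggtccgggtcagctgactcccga
NPL, chr1:182789523-182789772 (+ strand): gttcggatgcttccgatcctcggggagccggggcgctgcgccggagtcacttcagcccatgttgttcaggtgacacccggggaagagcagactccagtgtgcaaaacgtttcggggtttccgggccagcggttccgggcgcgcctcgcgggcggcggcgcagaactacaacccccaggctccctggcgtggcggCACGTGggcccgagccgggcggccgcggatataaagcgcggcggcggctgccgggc
None of the 3 motifs was found in either GNE window. Their GC content differed, at 42.0% in the first and 70.0% in the second, against a median of 58.0% over all windows. Among the other members, 1 NEU3 window held the response element on the opposite strand, beginning at position -119, and the windows of NANS, CMAS, SLC35A1, SLC17A5 and NEU2 held none of the 3. SLC17A5 was also lower in T84 than in Caco-2, without an E-box in its window. A match of letters is a description and not a site shown to be bound.

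Values are log2 signals, so a difference of 1 is a 2-fold change. The arrays had medians between 6.70 and 6.80. Caco-2 replicate 1 stood apart: its deviations from its group mean had an SD of 0.273 over all probe sets, against 0.0571 to 0.177 in the other 8 arrays. The label of the treatment was checked with CXCL9, CXCL10, CXCL11, ICAM1 and CD74, and 5 of 5 were higher in treated than in untreated T84, by 3.17 to 6.12 log2 units. Of 6 measured intestinal epithelial markers, 5 or 6 were above the array median on each treated T84 array, 5 or 6 on each untreated T84 array and 3 on each Caco-2 array. At most 1 of 11 leukocyte markers was above it on any array, and of 7 fibroblast and endothelial markers 1 on each T84 array and 2 on each Caco-2 array.

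The first comparison set treated against untreated T84. GNE fell and was the one member past the test (adjusted p below 0.05, limma, Benjamini-Hochberg over all 1259 probe sets). Of the 10 member probe sets, 1 was lower, 0 were higher and 9 did not pass. Over all probe sets 10.2% were called, 4.37% higher and 5.8% lower (55 and 73 probe sets, against 289 and 52 with arrays centred on ribosomal protein genes), so the members' count is near the background. The groups did not overlap at 6 of the 10 (5 of the 9 genes by their brightest probe set), against 27.5% of all probe sets. The median log2 fold change of the 10 was -0.22, against -0.01 over all probe sets. In RNA from whole cultures, fewer cells expressing a gene and less of its RNA per cell cannot be told apart.

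GNE encodes the bifunctional epimerase and kinase that commits UDP-GlcNAc to sialic acid and is inhibited by CMP-sialic acid, the end product. Its signals were 8.89, 8.65 and 8.49 in treated T84 and 9.70, 9.60 and 9.78 in untreated T84, with 7.47, 7.76 and 7.51 in Caco-2. The 3 groups did not overlap, and treated T84 lay between the other 2. The means were 8.68 ± 0.20 in treated T84 and 9.70 ± 0.09 in untreated T84 (SD, n = 3 each). On the log2 scale the fold change was -1.02 ± 0.11 (SE). GNE was thus 2.02 times lower in treated T84, with a 95% confidence interval of 1.69 to 2.43 times (adjusted p = 0.000757 in limma). It ranked 9th from the bottom among all 1259 fold changes. Over 18 alternative settings the log2 fold change stayed between -1.12 and -0.86 and the adjusted p between 9.27e-05 and 0.00919.

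NANS, the synthase that condenses ManNAc-6-phosphate with phosphoenolpyruvate in the step after GNE, stayed within the spread of the replicates. Its signals were 10.16, 10.21 and 10.15 in treated T84 and 10.44, 10.09 and 10.34 in untreated T84, so the groups overlapped. The log2 fold change was -0.12 (95% confidence interval -0.32 to 0.08; adjusted p = 0.585). A fall as large as that of GNE is outside this interval.

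CMAS joins sialic acid to CMP and is unusual among such enzymes in working in the nucleus. Its signals were 11.59, 11.53 and 11.41 in treated T84 and 11.92, 11.74 and 11.83 in untreated T84. The lowest untreated array was above the highest treated array. At -0.32 ± 0.16 (SE), the log2 fold change did not pass (adjusted p = 0.351 in limma). All groups share one estimate of the spread, and the SD of CMAS was 0.091 in treated T84 and 0.092 in untreated T84, against 0.36 for Caco-2. CMAS passed when only the 6 T84 arrays were fitted (limma adjusted p = 0.0306), without Caco-2 replicate 1 (0.0193) and with array weights (0.042). In the other 15 alternatives it did not pass, at adjusted p values up to 0.649. With ribosomal centring it was at -0.169 (limma adjusted p = 0.4208).

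SLC35A1 carries CMP-sialic acid into the Golgi in exchange for CMP. It was the member with the highest fold change after treatment, with signals of 11.01, 10.75 and 10.57 in treated T84 and 10.38, 10.38 and 10.35 in untreated T84. All treated arrays were above all untreated arrays, and the SD was 0.22 in treated T84 and 0.02 in untreated T84. At 0.41 ± 0.23 (SE; 95% confidence interval -0.11 to 0.93), its log2 fold change did not pass (adjusted p = 0.44 in limma). It passed without Caco-2 replicate 1 (adjusted p = 0.0416), where the standard error was 0.11. It also passed at 0.50 log2 units (adjusted p = 0.0357) when treated replicate 3, untreated T84 replicate 3 and Caco-2 replicate 1, which deviated together, were left out, which was decided with the data in view. It did not pass in the other 16 alternatives, with an adjusted p of 0.0704 with only the 6 T84 arrays and 0.0646 with array weights. Without treated replicate 1 it was at 0.29 (limma adjusted p = 0.691). Its probe set is shared among transcripts by its suffix, as is that of NANS.

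**Figure D1:**
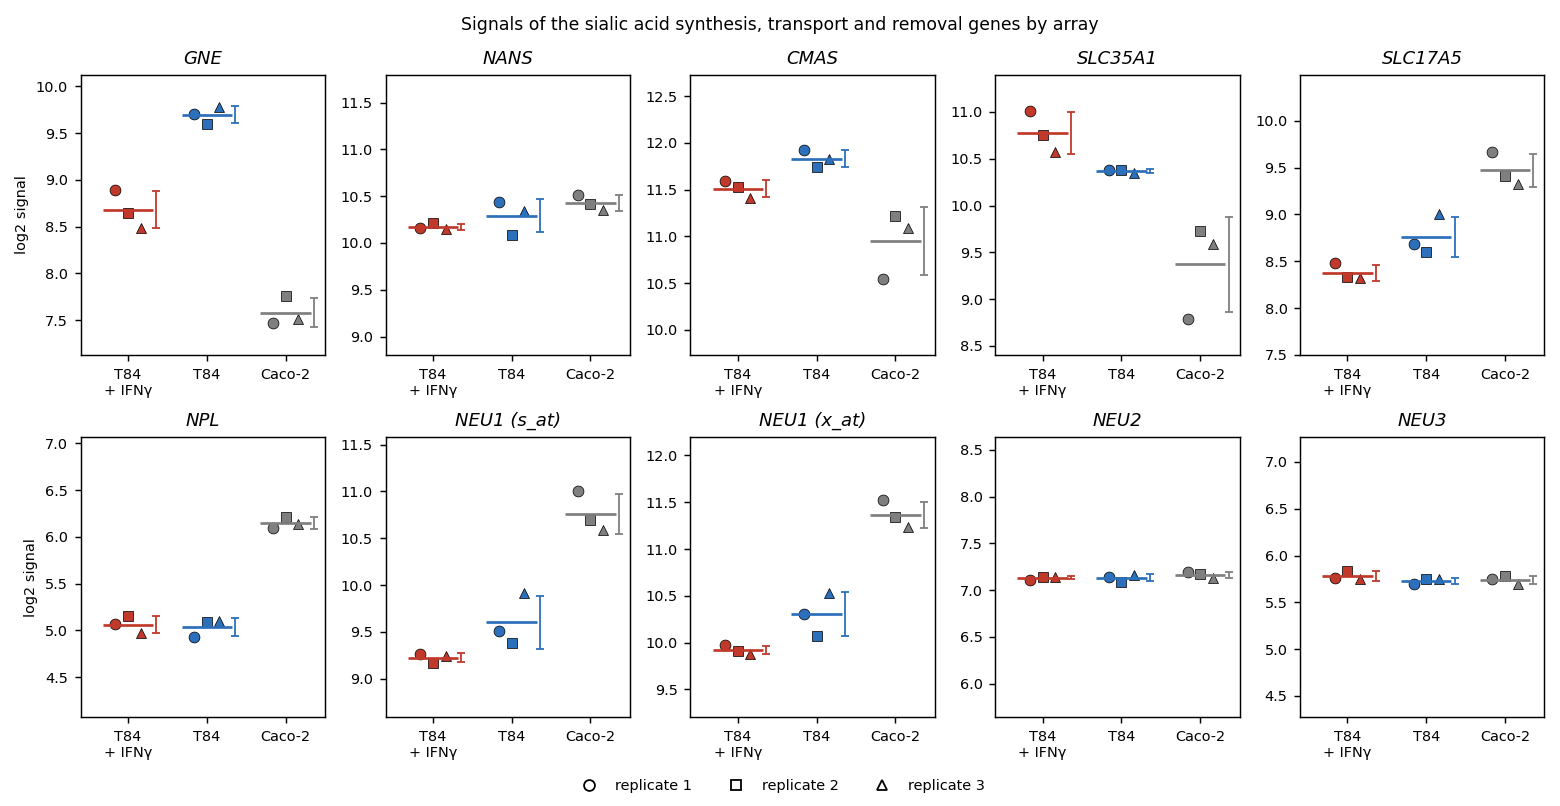
Log2 signal of each of the 10 probe sets (vertical axis, each panel spanning 3 log2 units) in treated T84, untreated T84 and Caco-2, with 1 point per array, a bar at the group mean and the SD beside it. GNE lies lower in treated than in untreated T84 and lowest in Caco-2, while both NEU1 probe sets and NPL lie highest in Caco-2.

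The removal and recycling genes showed no call after interferon gamma. NEU1, the lysosomal sialidase, which also acts at the cell surface, was read by a probe set shared among transcripts and by one that may cross-hybridise. The shared probe set gave 9.26, 9.17 and 9.24 in treated T84 and 9.51, 9.38 and 9.92 in untreated T84. The cross-hybridising one gave 9.97, 9.91 and 9.88 in treated T84 and 10.31, 10.07 and 10.53 in untreated T84. Neither overlapped between the groups, and untreated T84 replicate 3 was the highest T84 array on both. The log2 fold changes were -0.38 ± 0.15 and -0.39 ± 0.12 (SE), and neither passed (limma adjusted p = 0.201 and 0.0857). The second passed without untreated T84 replicate 2 (-0.50; adjusted p = 0.0228). Without untreated T84 replicate 3 the values were -0.22 and -0.27 (limma adjusted p = 0.447 and 0.226).

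SLC17A5, or sialin, exports free sialic acid from the lysosome. It gave 8.48, 8.33 and 8.32 in treated T84 and 8.68, 8.60 and 9.0 in untreated T84, again without overlap and again with untreated T84 replicate 3 highest. The log2 fold change was -0.39 ± 0.12 (SE; 95% confidence interval -0.67 to -0.11), which did not pass (limma adjusted p = 0.104). Without Caco-2 replicate 1 it passed at an adjusted p of 0.0495, and with array weights at 0.0132. It did not pass in the other 16 alternatives. Without untreated T84 replicate 3 it was at -0.267 (limma adjusted p = 0.2625), and with ribosomal centring at -0.237 (0.1392).

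NPL, the lyase that splits free sialic acid into ManNAc and pyruvate, gave 5.07, 5.15 and 4.97 in treated T84 and 4.93, 5.09 and 5.10 in untreated T84. The groups overlapped (log2 fold change 0.02, 95% confidence interval -0.13 to 0.18). All 6 T84 values were below 5.33, the 25th percentile of all deposited values. No detection calls were used here, so a low signal cannot be told from background. NEU2, the cytosolic sialidase, gave 7.11 to 7.14 in treated T84 and 7.09 to 7.16 in untreated T84. NEU3, the plasma membrane sialidase that prefers gangliosides, gave 5.75 to 5.84 in treated T84 and 5.70 to 5.75 in untreated T84. For NEU2 the 95% confidence interval of the log2 fold change ran from -0.09 to 0.09, and for NEU3 from -0.05 to 0.16. Without detection calls, these narrow intervals do not show that either gene was expressed.

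**Figure D2:**
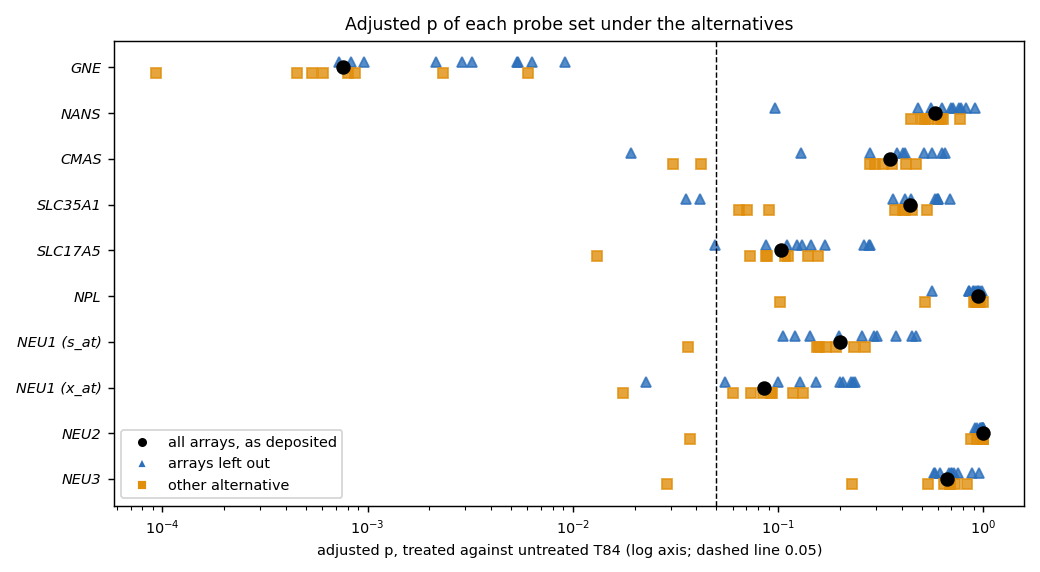
Adjusted p of each probe set in treated against untreated T84 (horizontal log axis), with black circles for the fit to all arrays as deposited, triangles for fits with arrays left out and squares for other alternatives. GNE stays left of the dashed line at 0.05 throughout, while CMAS, SLC35A1, SLC17A5 and NEU1 cross it in some fits, and NEU2 and NEU3 in 1 each.

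With Caco-2 replicate 1 left out, 4 member probe sets passed between treated and untreated T84: GNE, CMAS and SLC17A5 lower and SLC35A1 higher. With array weights 5 probe sets passed, all lower: GNE, CMAS, SLC17A5 and both of NEU1. Without the 3 arrays that deviated together, SLC35A1 passed, and GNE passed with a smaller fall (-0.88). CMAS (-0.269), SLC17A5 (-0.237) and NEU1 (-0.227 and -0.251) also fell less there than with all arrays, and did not pass. With arrays centred on the ribosomal protein genes 2 were higher, NEU2 (0.15) and NEU3 (0.20), and GNE was lower. That scaling moves the median log2 fold change of all probe sets to 0.14, so both of those stand near the shifted median.

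Treated T84 was next set against Caco-2. GNE, CMAS and SLC35A1 were higher in treated T84, and NEU1, SLC17A5, NPL and NANS were lower. Of the 10 probe sets 5 were lower, 3 higher and 2 did not pass. Of the 9 genes by their brightest probe set, 4 were lower and 3 higher. Over all probe sets 45.6% were called, 19.4% higher and 26.2% lower (244 and 330 probe sets, against 911 and 180 with ribosomal centring). Groups did not overlap at 8 of the 10 probe sets (7 of the 9 genes by their brightest probe set), against 53.5% of all. The median absolute log2 fold change was 1.09 for the 10, 1.08 for the 9 genes and 0.21 for all probe sets. The members were chosen with earlier results of these data known, so nothing about the pathway is drawn from this contrast.

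Untreated T84 was set against the same Caco-2 arrays, so these comparisons share them. GNE, CMAS and SLC35A1 were higher in untreated T84, and NEU1, SLC17A5 and NPL were lower. Of the 10 probe sets 4 were lower, 3 higher and 3 did not pass. By brightest probe set, 3 of the 9 genes were lower and 3 higher. Over all probe sets 43.7% were called, 19.5% higher and 24.2% lower (245 and 305 probe sets, against 837 and 195 with ribosomal centring). Groups did not overlap at 7 of the 10 (6 of the 9 genes), against 49.6% of all.

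GNE was 2.14-fold higher in treated T84 than in Caco-2 (95% confidence interval 1.78 to 2.57; limma adjusted p = 6.22e-05) and 4.33-fold higher in untreated T84 (3.61 to 5.20; adjusted p = 1.27e-06). CMAS in Caco-2 was at 10.54, 11.22 and 11.09, below all T84 arrays, with replicate 1 lowest. It was higher by 0.56 ± 0.16 log2 units in treated T84 (SE; limma adjusted p = 0.0199) and by 0.88 ± 0.16 in untreated T84 (0.00206). The call for treated T84 was lost with only the 6 arrays of the 2 groups (adjusted p = 0.053), without treated replicate 1 (0.0639) and without treated replicate 2 (0.0579). Without Caco-2 replicate 1 the value for treated T84 was 0.35 (limma adjusted p = 0.00605), and with array weights it was also 0.35 (0.00475).

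SLC35A1 in Caco-2 was at 8.79, 9.73 and 9.59, again with replicate 1 lowest and all arrays below T84. It was 2.65-fold higher in treated T84 (1.84 to 3.80; limma adjusted p = 0.000945) and 2.00-fold higher in untreated T84 (1.39 to 2.87; adjusted p = 0.0067). Without Caco-2 replicate 1 the log2 fold changes were 1.12 and 0.71, both past the test, against 1.41 and 1.00 with it.

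NANS in Caco-2 was at 10.51, 10.42 and 10.35. Treated T84 was lower, at -0.26 ± 0.09 log2 units (SE; adjusted p = 0.0446 in limma), and untreated T84 was at -0.13 ± 0.09 (adjusted p = 0.276). The first call was lost in 11 of 18 alternatives, at adjusted p values up to 0.216, among them each fit that left out 1 treated or 1 Caco-2 array. The direction turned with ribosomal centring, at 0.19 log2 units (adjusted p = 0.0454).

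NEU1 and SLC17A5 were lower in both T84 groups. NEU1 in Caco-2 was at 11.0, 10.69 and 10.59 on the shared probe set and at 11.52, 11.34 and 11.24 on the cross-hybridising one, with replicate 1 highest on both. Its log2 fold changes were -1.54 ± 0.15 and -1.45 ± 0.12 in treated T84 (SE; limma adjusted p = 3.99e-05 and 1.28e-05), and -1.16 ± 0.15 and -1.06 ± 0.12 in untreated T84 (0.000261 and 9.68e-05). SLC17A5 in Caco-2 was at 9.67, 9.41 and 9.33, above all T84 arrays. It was 2.14-fold lower in treated T84 (1.76 to 2.60) and 1.64-fold lower in untreated T84 (1.34 to 1.99).

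NPL in Caco-2 was at 6.09, 6.21 and 6.14, about 1 log2 unit above every T84 array. The log2 differences in signal were -1.08 in treated T84 and -1.11 in untreated T84 (limma adjusted p = 2.57e-06 and 2.85e-06). Since the T84 signals may be background, these sizes may understate the difference in transcript at the deposited scaling. They shrank with ribosomal centring, to -0.642 in treated T84 and -0.815 in untreated T84. NEU2 in Caco-2 was at 7.19, 7.17 and 7.13 and NEU3 at 5.75, 5.78 and 5.70, overlapping both T84 groups. Their log2 fold changes against Caco-2 ran from -0.03 to 0.04 over both T84 groups and did not pass. With ribosomal centring, which moves the median of all probe sets to 0.46 against treated T84 and 0.31 against untreated T84, NEU2 and NEU3 were called higher in both. The member probe sets then counted 6 higher and 4 lower in treated T84 and 5 higher and 4 lower in untreated T84. GNE, CMAS and SLC35A1 stayed higher and NEU1, SLC17A5 and NPL lower, all past the test, in that scaling too.

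**Figure D3:**
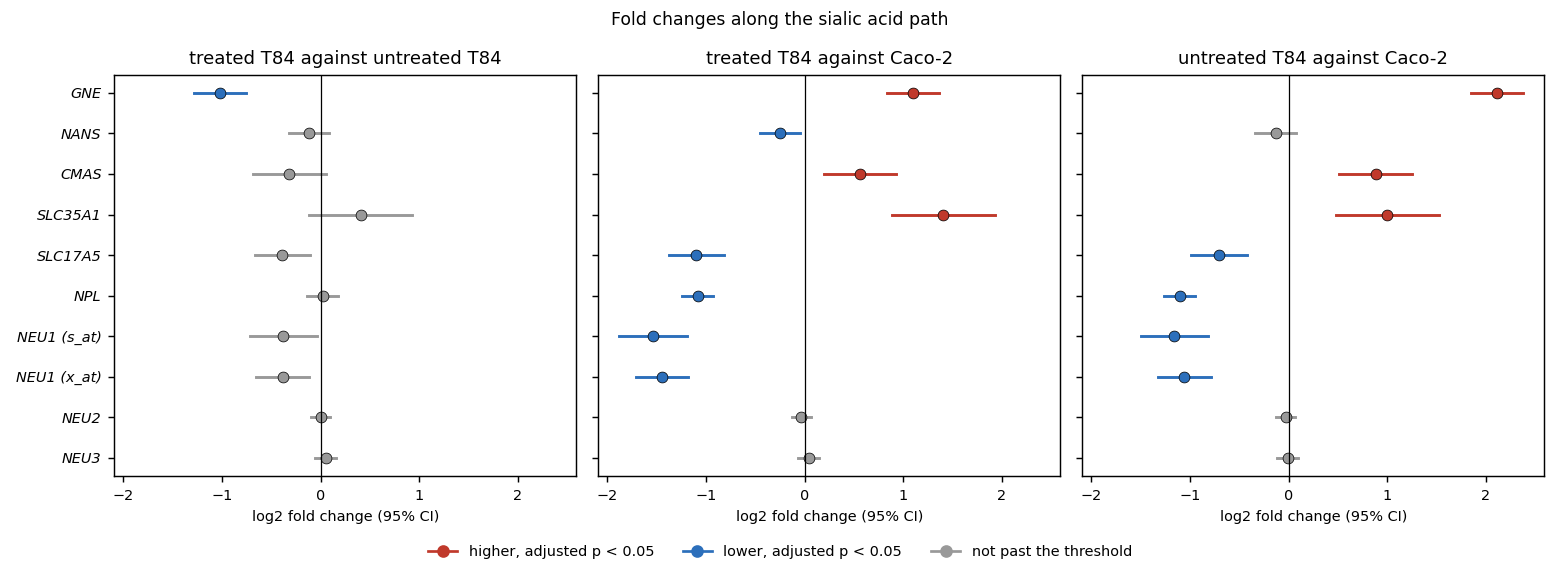
Log2 fold change with its 95% confidence interval (horizontal axis) of the 10 probe sets in the 3 comparisons, red where higher, blue where lower and grey where not past the threshold. Against Caco-2, GNE, CMAS and SLC35A1 lie right of 0 and NANS, SLC17A5, NPL and NEU1 left of it (NANS is grey for untreated T84), and after interferon gamma GNE alone is coloured.

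In a ratio between 2 genes on one array, any constant added to all log2 values of that array cancels. The level of such a ratio has no meaning of its own, since probe sets differ in response, and only its differences between groups are read. No test is given, since an exact permutation of 3 against 3 arrays cannot go below a two-sided p of 0.1. The log2 ratio of NANS to GNE was 1.49 ± 0.20 in treated T84, against 0.60 ± 0.13 in untreated T84 and 2.84 ± 0.19 in Caco-2 (SD, n = 3 each), with no overlap between groups. The ratio of SLC35A1 to CMAS was -0.73 ± 0.14 in treated T84, against -1.46 ± 0.10 in untreated T84 and -1.58 ± 0.14 in Caco-2. Treated T84 did not overlap with either, while untreated T84 and Caco-2 overlapped. The ratio of SLC35A1 to GNE was 2.10 ± 0.02 in treated T84, against 0.67 ± 0.11 in untreated T84 and 1.79 ± 0.41 in Caco-2, and the T84 groups did not overlap. That of SLC17A5 to NEU1 (the cross-hybridising probe set) was -1.55 ± 0.05 in treated T84, against -1.54 ± 0.08 in untreated T84 and -1.90 ± 0.04 in Caco-2. The T84 groups overlapped there, and both lay above Caco-2. The ratios of CMAS to NANS, CMAS to GNE and SLC35A1 to NEU1 were also computed, and no groups overlapped in them. The share of other gene pairs without overlap was not computed, so lack of overlap is only a description. Of single probe sets, 27.5% did not overlap between the T84 groups, and 53.5% (treated) and 49.6% (untreated) against Caco-2.

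**Figure D4:**
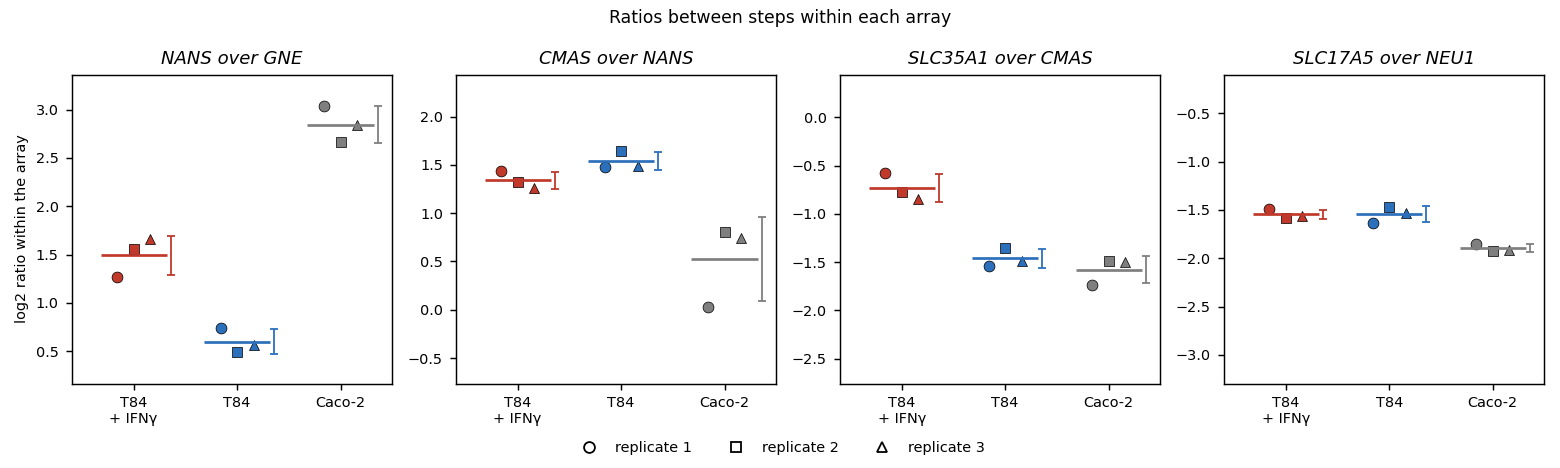
Log2 ratio between the signals of 2 genes on the same array (vertical axis, each panel spanning 3.2 log2 units) in treated T84, untreated T84 and Caco-2, with points for arrays, bars for means and SD beside them. NANS over GNE separates all 3 groups, SLC35A1 over CMAS sets treated T84 apart, and SLC17A5 over NEU1 overlaps between the 2 T84 groups.

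The genes whose profile over the 9 arrays was most like a member's were found by the root mean square difference of mean-centred log2 signals, a description over groups that share arrays. For GNE they were SLC35D3 (0.137), CCL20 (0.21), PAPSS2 (0.222), LFNG (0.273) and SULT1A2 (0.28), where the median over all named probe sets was 0.879. SLC35D3, an orphan member of the nucleotide sugar transporter family, averaged 6.24 in treated T84, with 7.36 in untreated T84 and 5.24 in Caco-2. For SLC35A1 they were MET (0.169), PSMC1, C1GALT1C1, GALNT5 and IFNGR1 (0.21), where the median was 0.6555. For SLC17A5 they were GALK1 (0.0984), FGFR4, BPHL, DDB1 and RPL13A (0.122), against a smaller median of 0.493. For NEU1 (the cross-hybridising probe set) they were SULT1A3 (0.132), SULF2, MST1, SLC35E3 and ARSL (0.149), against a median of 0.639. The SULT1A3 probe set may also cross-hybridise.

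Around the members, 40 further pathway genes were listed, and 31 had a probe set (34 in all). Between treated and untreated T84, 1 of the 34 was lower, 1 higher and 32 did not pass, where 10.2% of all probe sets were called, with a median log2 fold change of -0.05 against -0.01 over all probe sets. GNPDA1, which turns glucosamine-6-phosphate back to fructose-6-phosphate and so draws away from UDP-GlcNAc, was higher by 0.47 ± 0.08 log2 units (SE; limma adjusted p = 0.0065). SLC35D3 was lower, at -1.12 ± 0.09 (adjusted p = 0.000101). GFPT1, the rate-limiting enzyme of UDP-GlcNAc supply, was at 0.03 ± 0.10 and did not pass.

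Against Caco-2, 6 of the 34 were higher and 8 lower in treated T84, and 7 and 10 in untreated T84, near the 45.6% and 43.7% called over all probe sets. The 4 higher ones with the lowest adjusted p in treated T84 were SLC35D3 (1.00 log2 units), SLC35E4 (0.81), GFPT1 (0.96) and 1 of 4 probe sets of the UDP-galactose transporter gene SLC35A2 (0.26). Those in untreated T84 were SLC35D3 (2.11), SLC35E4 (0.82), GFPT1 (0.93) and SLC35E1 (0.56). Lower in treated and in untreated T84, by the same rule, were SLC35B4 (-1.96 and -1.97), a transporter of UDP-xylose and UDP-GlcNAc, SLC35D2 (-1.08 and -0.96), GLB1 (-1.13 and -0.89) and SLC35E3 (-1.26 and -1.08). GLB1 (beta-galactosidase) and CTSA (protective protein) form a lysosomal complex with NEU1. CTSA did not pass in either comparison (0.18 ± 0.08 and 0.08 ± 0.08), nor did the sialidase gene NEU4 (-0.11 ± 0.06 and -0.07 ± 0.06). SLC35B4 averaged 5.20 in treated and 5.19 in untreated T84, and SLC35D3 averaged 5.24 in Caco-2, below the 25th percentile of 5.33. Either signal may be background, so at the deposited scaling their differences from the brighter line may understate the difference in transcript. With ribosomal centring the 34 counted 23 higher and 5 lower in treated T84 and 19 and 7 in untreated T84.

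The 20 sialyltransferase genes, the users of CMP-sialic acid, had 24 probe sets. Between treated and untreated T84, 1 was higher and 2 lower, where 10.2% of all probe sets were called. Against Caco-2, 2 were higher and 8 lower in treated T84 and 4 and 7 in untreated T84, where 45.6% and 43.7% of all were called. The 17 measured genes for sialic acid binding lectins and selectins had 19 probe sets. Of these 0 passed between treated and untreated T84 by limma. At an unadjusted limma p below 0.05 there were 2 of these 19, 6 of the 24 sialyltransferase and 4 of the 10 member probe sets. The share of all probe sets at that threshold was not computed, so these counts are only a description. In each comparison with Caco-2, 1 of the 19 was higher and 1 lower.

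**Figure D5:**
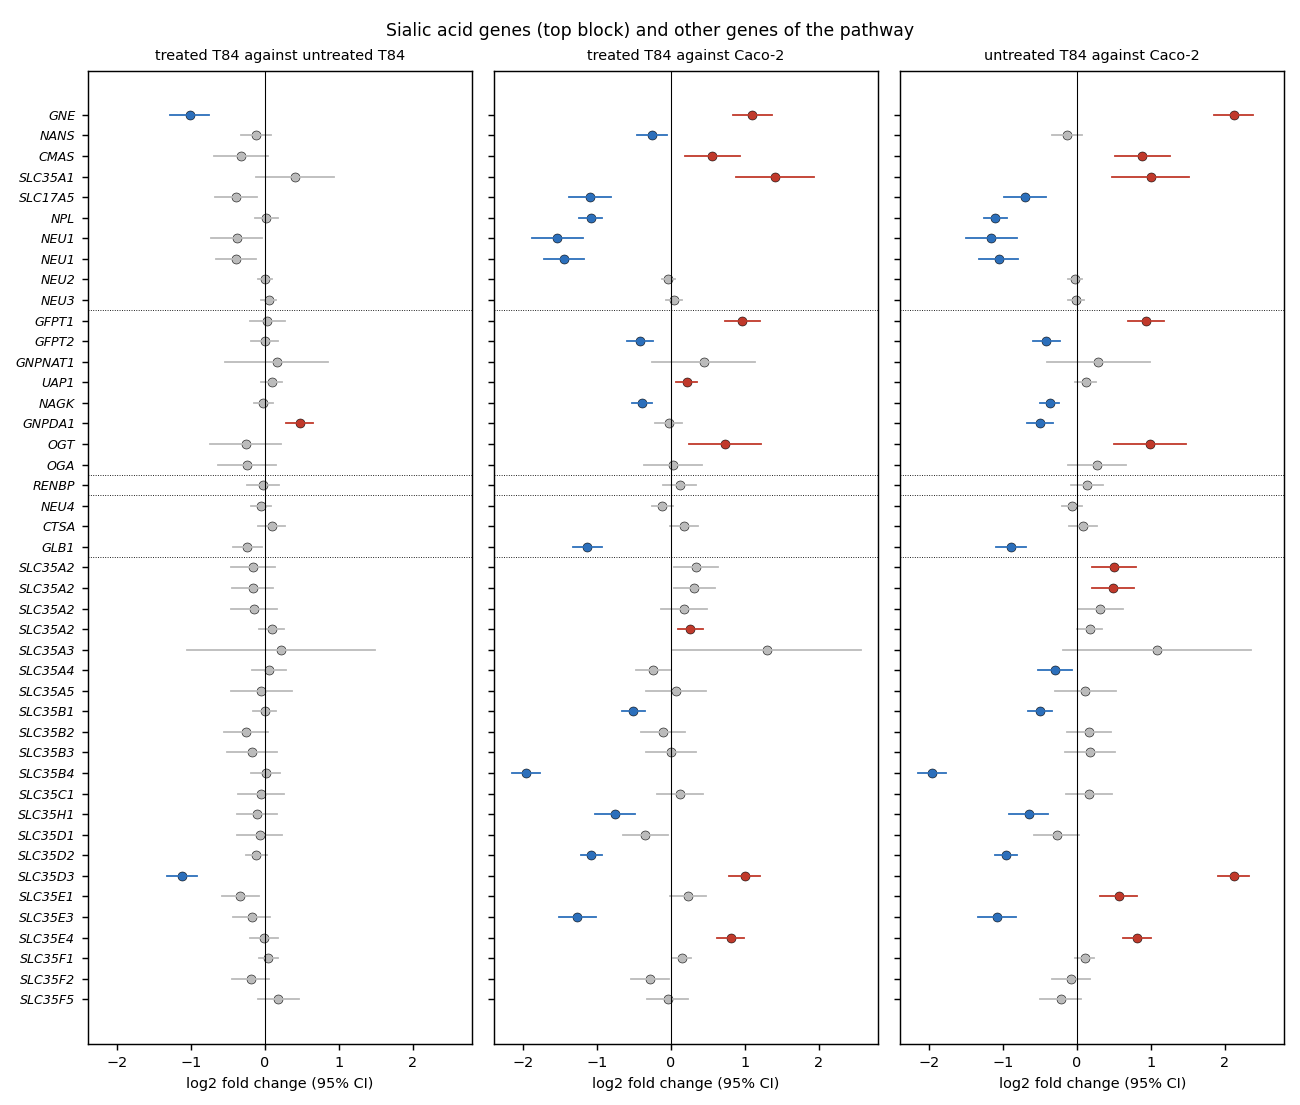
Log2 fold change with its 95% confidence interval (horizontal axis) in the 3 comparisons for the 10 member probe sets (top block) and the 34 of UDP-GlcNAc supply, other sialic acid synthesis, the sialidase complex and the SLC35 family (blocks below), coloured red where higher and blue where lower. After interferon gamma the coloured points are GNE, GNPDA1 and SLC35D3.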

How the data were processed

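Signals were deposited on a log2 scale, 1 per probe set and array, and RMA is the tool that the submitters' processing notes name for making them. Biotin-labelled cRNA came from 0.5 ug of total RNA, per the labels' protocols. The RMA version, later filters and the build of the probe sets were not given to work from, so the probe sets are given no position. Of 1259 probe sets, 1043 received 1 symbol by RefSeq accession without its version and 216 none, and all were tested. The start windows come from RefSeq's own table and carry its build.

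The 3 groups were fitted together in limma 3.58.1 (R 4.3.3), without covariates, and variances were moderated (6 residual and 2.12 prior degrees of freedom). P-values were adjusted by Benjamini-Hochberg across the 1259 probe sets and read at 0.05. Alternatives changed scaling, filters, weights, the replicate block and the arrays used. The fit was also run on simulated data with independent errors and the same spread on all arrays. Such data lack the correlated deviations and unequal spread of these arrays, so no support is drawn from that run. Members were named by the rule for the gene set and other pathway genes where they passed (against Caco-2, up to 4 in each direction by adjusted p). The members and lists were chosen with earlier results of these data known. Same-numbered arrays of different groups had correlations of deviations from -0.643 to 0.561. Treated with untreated T84 gave 0.386, -0.024 and 0.561 for replicates 1, 2 and 3, and the lowest values came from pairs with Caco-2. The labels name no pairs, so the numbers were not taken as pairs, and a replicate block was fitted as an alternative. With 3 arrays a group, precision is limited by their number. Tables and figures used pandas 2.3.3 and matplotlib 3.10.9 in Python 3.11.15.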

Additional observations from a re-analysis of the deposited data

How the results depend on the processing

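Each result was recomputed under 18 alternatives, 9 of which left out 1 array each. For the 10 member probe sets in 3 comparisons, 493 recomputed values kept direction and call, 14 lost a call, 12 gained one and 18 changed sign. Values that changed sign were counted only as such, whatever their call. Among them, with ribosomal centring, NEU2 became called in all 3 comparisons and NEU3 in untreated T84 against Caco-2. NANS in treated T84 against Caco-2 turned from called lower to called higher in that scaling.

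Member probe sets called between treated and untreated T84 numbered 1, and 2 with only the 6 arrays compared, 5 with array weights, 3 with ribosomal centring, 2 without the 3 arrays that deviated together (correlations of deviations 0.484 to 0.756; chosen after seeing the data) and 1 to 4 with single arrays left out. Against Caco-2, leaving out single arrays gave 6 to 8 member probe sets called in treated T84 and 7 in untreated T84. Probe sets called over the whole table between treated and untreated T84 numbered 128, and 231 with array weights, 341 (289 higher, 52 lower) with ribosomal centring and 86 to 178 with single arrays left out. Ribosomal centring gave 1091 (911 higher, 180 lower) in treated T84 and 1032 (837 and 195) in untreated T84 against Caco-2, where 574 and 550 were called as deposited. The other pathway probe sets called were 2 between treated and untreated T84, and 4 with only the 6 arrays, 4 with array weights, 5 with ribosomal centring and 2 to 4 with single arrays left out. In treated T84 against Caco-2 they were 14, and 22 with array weights, 28 with ribosomal centring and 12 to 21 with single arrays left out, and in untreated T84 they were 17, and 26 with ribosomal centring and 15 to 19 with single arrays left out. The causes were not tested.

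Signs changed for NANS, NPL, NEU2 and NEU3. Between treated and untreated T84, NANS was at 0.03 with ribosomal centring, and NPL ran from -0.033 to 0.067 with single arrays left out. NEU2 was at 0.007 with array weights, 0.149 with ribosomal centring, 0.011 without the 3 arrays together and -0.022 to 0.015 with single arrays left out. With ribosomal centring NANS was at 0.186 and NEU2 at 0.408 in treated T84 against Caco-2, and NANS at 0.157, NEU2 at 0.258 and NEU3 at 0.279 in untreated T84. With median centring NEU2 was at 0.006 and NEU3 at 0.027 in untreated T84 against Caco-2, where NEU3 ran from -0.035 to 0.009 with single arrays left out.

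With the replicate number as a block, 1 member probe set was called between treated and untreated T84, and 7 in each comparison with Caco-2, where NANS was lost in treated T84 (adjusted p = 0.0604 in limma). The block changed the call of no other member probe set.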
